A study of Mus musculus with 12 samples.

Results

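The mitochondrial ribosomal protein genes encode the protein part of the ribosome that works inside mitochondria, and their levels were followed by RNA-seq in mouse ES cells and embryos under drug treatment. The genes were chosen by name and level, as those whose name starts with Mrpl or Mrps plus a number, without pseudogene names ending in -ps, and with at least 1 TPM (transcripts per 1000000) in at least 2 ES libraries. This kept 75 of the 53715 genes in the table, 48 of the large subunit series (Mrpl) and 27 of the small subunit series (Mrps). Mouse E14 ES cells, kept in LIF/2i on a layer of feeder fibroblasts, were either left untreated or given CX-5461, rapamycin or rotenone. CX-5461 inhibits RNA polymerase I, which transcribes the cytosolic rRNA genes, rapamycin inhibits the mTOR kinase, and rotenone blocks respiratory complex I. C57BL/6J embryos were left untreated or given CX-5461, which the study describes as morulae treated and grown on to blastocysts. Each of the 6 groups had 2 libraries, which the study describes as biologically independent, although neither cultures nor litters are named in the labels. Every p-value measures the spread between these libraries.

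Mitochondrial ribosomes translate the few proteins encoded by the mitochondrial genome, all of them core subunits of the respiratory chain and of ATP synthase. Their RNA comes from the mitochondrial genome, but every one of their proteins is encoded in the nucleus, made by cytosolic ribosomes and imported. Some of these proteins have a bacterial homologue, and others are found only in mitochondria. By that division, 47 of the 75 members were homologous to bacterial proteins and 28 were specific to mitochondria.

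Upstream sequence was available from RefSeq (GRCm38.p6) for 66 of the 75 members, as windows of 250 bases before and 50 bases after the start site. These windows were searched on both strands for the letters of binding motifs often found at genes for mitochondrial proteins. The ETS family motif CCGGAAG was present in 22 of the 66 member windows (33.3%), against 8.86% of all 32851 windows and 17.02% of the 10463 windows of genes tested in ES cells. The palindrome bound by NRF1 was present in 13 (19.7%, against 4.60% and 9.84%), and the YY1 motif AAGATGGC in 12 (18.2%, against 2.75% and 4.46%). At least 1 of these motifs was present in 39 member windows (59.1%), compared with 14.7% of all windows and 27.9% of those of tested genes. The GC box GGGCGG, which can overlap an NRF1 motif or another GC box, was found in 34 (51.5%, above the 35.7% of all windows and below the 63.997% of tested genes), and the TATA letters TATAAA in 4 (6.06%, against 13.6% and 7.33%). These are matches of letters and not measured binding sites. The stretches that follow belong to 3 of the members that fell furthest with CX-5461 (Mrpl12, Mrpl42 and Mrps36), to 2 members that fell and carry the ETS letters (Mrpl52 and Mrps22), and to the member that rose (Mrpl16). They run 5′ to 3′ on the strand of the gene, end before the first base that RefSeq or GENCODE counts as transcribed, and carry the matched motif letters in capitals.
Mrpl12, chr11:120484387-120484612, plus strand: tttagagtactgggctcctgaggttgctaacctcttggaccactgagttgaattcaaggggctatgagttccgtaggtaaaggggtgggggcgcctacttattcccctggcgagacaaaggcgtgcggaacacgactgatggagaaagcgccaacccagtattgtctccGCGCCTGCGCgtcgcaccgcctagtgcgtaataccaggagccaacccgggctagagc
Mrpl42, chr10:95501950-95502199, minus strand: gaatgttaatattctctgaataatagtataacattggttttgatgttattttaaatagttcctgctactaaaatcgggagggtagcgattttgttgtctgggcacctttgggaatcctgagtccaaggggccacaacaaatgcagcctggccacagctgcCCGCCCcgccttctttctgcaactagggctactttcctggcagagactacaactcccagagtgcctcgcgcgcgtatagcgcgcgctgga
Mrps36, chr13:100744660-100744909, minus strand: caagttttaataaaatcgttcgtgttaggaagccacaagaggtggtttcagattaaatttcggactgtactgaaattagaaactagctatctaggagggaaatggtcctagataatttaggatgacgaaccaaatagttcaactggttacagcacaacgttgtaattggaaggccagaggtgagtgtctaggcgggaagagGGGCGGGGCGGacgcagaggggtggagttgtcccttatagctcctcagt
Mrpl52, chr14:54426659-54426908, plus strand: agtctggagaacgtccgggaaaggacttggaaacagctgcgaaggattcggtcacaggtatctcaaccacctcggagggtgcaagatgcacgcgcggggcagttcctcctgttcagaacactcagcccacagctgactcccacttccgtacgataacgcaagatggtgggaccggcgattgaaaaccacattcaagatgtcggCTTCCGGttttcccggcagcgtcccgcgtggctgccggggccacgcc
Mrps22, chr9:98601680-98601929, minus strand: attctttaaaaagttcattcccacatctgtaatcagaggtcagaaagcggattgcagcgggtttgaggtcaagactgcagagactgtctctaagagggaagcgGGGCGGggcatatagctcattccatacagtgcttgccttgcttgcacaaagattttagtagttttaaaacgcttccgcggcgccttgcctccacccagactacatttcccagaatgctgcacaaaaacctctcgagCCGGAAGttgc
Mrpl16, chr19:11770165-11770390, plus strand: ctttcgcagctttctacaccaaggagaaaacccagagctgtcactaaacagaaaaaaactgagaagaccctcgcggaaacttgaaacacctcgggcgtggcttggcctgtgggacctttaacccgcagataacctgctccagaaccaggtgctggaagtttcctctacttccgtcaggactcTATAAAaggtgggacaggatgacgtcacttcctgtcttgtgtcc
The capitals mark a reversed NRF1 motif at 81 to 72 bases before the RefSeq start of Mrpl12, and a reversed GC box in Mrpl42. In Mrps36 they mark a pair of GC boxes that share a base, in Mrpl52 a reversed ETS motif 47 to 41 bases before the start, and in Mrps22 a GC box and an ETS motif. Mrpl16 showed none of the ETS, NRF1, YY1 or GC box letters, and its capitals mark TATAAA at 68 to 63 bases before the start.

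All 75 members were expressed in every library, with no value under 14.89 TPM in any of the 12. In untreated ES cells their mean levels ran from 25.1 TPM for Mrpl53 to 368 TPM for Mrpl42, a 14.7-fold range, with a median of 103 TPM. The median over all genes tested was 10.3 TPM. Both Mrpl53 and Mrpl42 encode large-subunit proteins specific to mitochondria. Of the 790 exon bases of Mrpl53, 695 are shared with Gm42688 on the same strand, so its level is less certain. After Mrpl42, the most abundant members in ES control cells were Mrpl52 (338 and 242 TPM in replicates 1 and 2), Mrpl18 (298 and 248 TPM), Mrpl12 (291 and 240.4 TPM) and Mrpl20 (268 and 210.0 TPM). Mrpl18 is part of the central protuberance of the large subunit, and Mrpl12 belongs to its flexible stalk, where translation factors dock. Mrpl32 (27.3 and 25 TPM) and Mrpl19 (28 and 26.9 TPM) were near the bottom. In untreated embryos, measured with another library protocol from pre-amplified cDNA, Mrpl42 was again the highest at a mean of 534.5 TPM, and Mrps25 was the lowest at 20.4 TPM.

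Together the members made up 0.942% and 0.7975% of all TPM in ES control replicates 1 and 2 (9419 and 7975 TPM). The share was 0.681% and 0.643% with CX-5461, 0.634% and 0.638% with rotenone, and 0.704% and 0.808% with rapamycin. Both CX-5461 libraries and both rotenone libraries lay below both controls, while the rapamycin libraries overlapped with them. The controls themselves stood apart: 67 of the 75 members were lower in control replicate 2 than the control mean, and the member median lay 0.18 above that of all genes in replicate 1 and 0.18 below it in replicate 2 on the log2 scale. In embryos the share was 1.08% and 1.05% in controls and 1.09% and 1.13% with CX-5461.

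**Figure D1:**
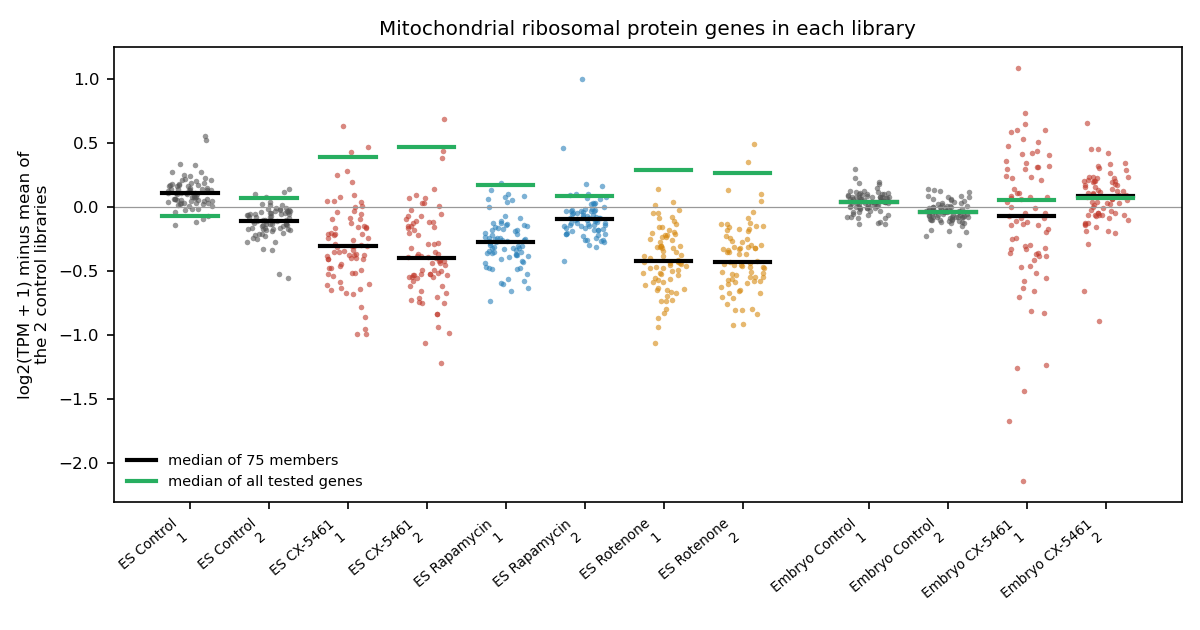
Change of each of the 75 members in each library, as log2(TPM + 1) minus the mean of the 2 control libraries of the same table (y axis), with ES and embryo libraries along the x axis. Each point is a member, black bars are member medians and green bars are medians of all tested genes; the member medians lay at -0.31 and -0.40 with CX-5461 and at -0.42 and -0.43 with rotenone in ES cells, where the medians of all genes lay above 0.

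Markers of other cells differed between the ES groups. The summed level of 20 fibroblast markers, none of which was at 0 in ES libraries, was 2205 and 2540 TPM in controls, 6763 and 7175 TPM with CX-5461, 6141 and 6494 TPM with rotenone and 3793 and 3313 TPM with rapamycin. All 20 rose with CX-5461 (limma, adjusted p under 0.05, 42.0% of all genes) and 19 with rotenone (30.6%). None was called with rapamycin, where no gene at all was called higher. At an unadjusted p under 0.05, 14 were higher with rapamycin (10.4% of all genes), and both rapamycin sums lay above both controls. The summed level of 8 ES markers was 6616 and 6682 TPM in controls, 4480 and 4587 TPM with CX-5461 and 5749 and 5789 TPM with rotenone. Among the 8, Dppa5a, Pou5f1, Nanog and Zfp42 fell and Klf4 rose with CX-5461 (0.68, adjusted p = 0.00845), whereas Dppa5a and Pou5f1 fell and Esrrb rose with rotenone (1.95, adjusted p = 0.0137). Of 5 primitive endoderm markers tested 4 rose with CX-5461 and 3 with rotenone. Per the labels, feeder cells had been depleted before RNA extraction. The part of feeder RNA in the member changes was not tested, and in bulk samples fewer cells of a type and less RNA per cell cannot be told apart.

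With CX-5461, about as many mitochondrial ribosomal protein genes fell as were left without a call. Compared with control ES cells, 37 of the 75 members fell and 1 rose (limma on log2(TPM + 1), Benjamini-Hochberg adjusted p under 0.05 over 17638 genes tested). Over all genes tested, 11.0% were called lower and 42.0% were called higher. The median member change was -0.39, whereas the median over all genes was 0.43, so the member median lay 0.81 below it. A total of 64 members had a negative change, and the count was 74 with median-ratio scaling, 71 with quantile scaling and 73 after removal of the trend over exon length. In 54 members both CX-5461 libraries were below both controls (19.4% of all genes tested), and in 4 members they were above (57.4%). At an unadjusted p under 0.05, 44 members were lower and 2 were higher (12.9% and 46.5% of all genes). The count of lower members rested on single libraries: it was 17 without control replicate 1, 21 without CX-5461 replicate 1 and 11 without CX-5461 replicate 2. The count of higher members was 3 without control replicate 1. The lower count was 59 under median-ratio scaling and 61 after removal of the trend over exon length, and under both the rise of Mrpl16 was not called. The shares of all genes called lower under these settings are not given, so the counts cannot be set against them.

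The 4 largest falls with CX-5461 were those of Mrpl12, Mrpl40, Mrpl42 and Mrps36. Mrpl12 (ENSMUSG00000039640.7, chr11:120484613-120489065, GRCm38, plus strand) was at 291 and 240.4 TPM in control cells and at 132 and 113 TPM with CX-5461 (log2 fold change -1.11, SE 0.14, n = 2 libraries per group, adjusted p = 0.00072). It was the member with the largest fall under this treatment, and its RefSeq promoter window carried the NRF1 letters. Mrpl40 (chr16:18872018-18876862, minus strand), a large-subunit protein specific to mitochondria, had 213 and 173 TPM in controls and 95.8 and 91.4 TPM with CX-5461 (-1.03, SE 0.14, adjusted p = 0.00101). Mrpl42 (chr10:95480805-95501940, minus strand) went to 189 and 191 TPM from 396 and 340.2 TPM (-0.95, SE 0.11, adjusted p = 0.000534), so the most abundant member of control cells was no longer the highest. Mrps36 (chr13:100735955-100744659, minus strand), which has also been assigned to the oxoglutarate dehydrogenase complex, went to 85.6 and 78.4 TPM from 176 and 138 TPM (-0.92, SE 0.19, adjusted p = 0.0058). Its sequence is shared with 4 processed pseudogenes at 95% identity or more over at least 200 bases, so its level is less certain, and Mrpl42 has 1 such copy. In each of these genes the control and treated libraries did not overlap.

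**Figure D2:**
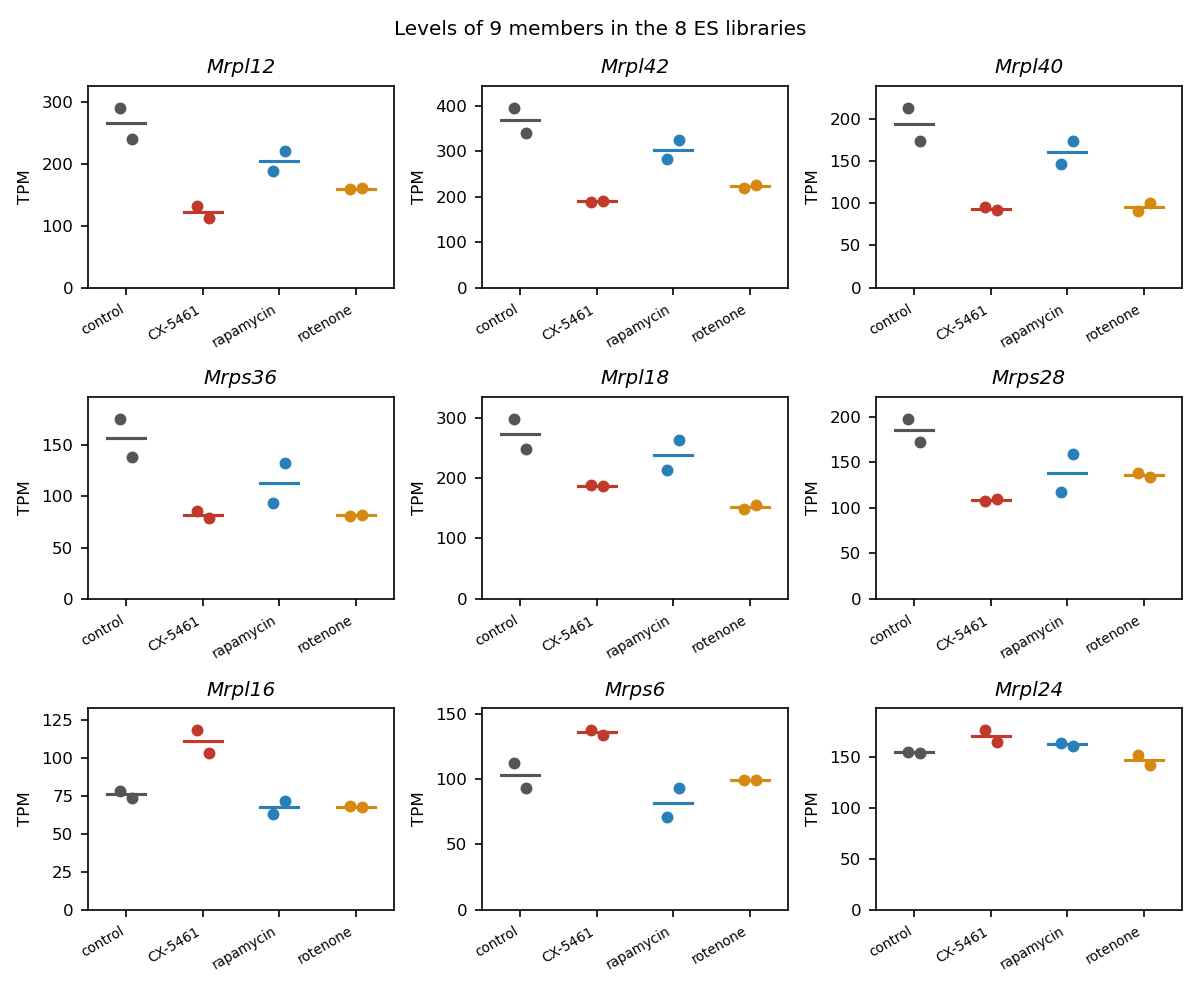
TPM (y axis, from 0) of 9 members in the 8 ES libraries, with 2 points per group and a bar at their mean. Mrpl12, Mrpl42, Mrpl40, Mrps36, Mrpl18 and Mrps28 were lower in both CX-5461 and both rotenone libraries than in both controls, and Mrpl16 was higher in both CX-5461 libraries (118 and 103 TPM) than in any of the other 6.

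Of the stalk and its base, Mrpl11 and Mrpl12 fell and Mrpl10 was not called. Mrpl10, which anchors the stalk, was at 116 and 112 TPM in controls and at 109.5 and 102 TPM in cells given CX-5461 (-0.10, SE 0.10, adjusted p = 0.395). Mrpl11, at the stalk base, fell to 40.2 and 36.1 TPM from 58.9 and 48.2 TPM (-0.47, SE 0.14, adjusted p = 0.0233), and Mrpl12 fell further as given above. Among proteins near the peptidyl transferase centre, where peptide bonds form, Mrpl2 was at 207 and 129 TPM in controls and 147 and 134 TPM with CX-5461 (adjusted p = 0.412). Mrpl3 had control levels of 48.6 and 45.7 TPM and treated levels of 65.5 and 40.8 TPM (adjusted p = 0.685). For both genes the libraries overlapped.

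Mrpl16, another protein of the peptidyl transferase region, was the 1 member called higher. Mrpl16 (ENSMUSG00000024683.5, chr19:11770391-11774960, plus strand) was at 78.3 and 73.6 TPM in control cells and at 118 and 103 TPM with CX-5461 (0.54, SE 0.11, adjusted p = 0.00699). Its change lay only 0.11 above the median of all genes, and it was not called when libraries were scaled by median ratios (0.06, adjusted p = 0.788) or by quantiles (0.35, adjusted p = 0.054), when the trend over exon length was taken out (0.05, adjusted p = 0.779) or without CX-5461 replicate 1 (0.44, adjusted p = 0.0545). Mrps6, a small-subunit protein, had the next largest positive change, to 138 and 134 TPM against 112 and 93.2 TPM in controls (0.40, SE 0.15, adjusted p = 0.0573). Its annotated exons overlap those of the inositol transporter gene Slc5a3 on the same strand over 159 bases.

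Around the exit tunnel, Mrpl45, which holds the ribosome at the inner membrane, fell to 113 and 99.3 TPM from 136 and 126 TPM (-0.30, SE 0.10, adjusted p = 0.0376). The tunnel rim proteins Mrpl23 (68.2 and 60.8 against 78.5 and 65.9 TPM, adjusted p = 0.314) and Mrpl24 (156 and 154 against 177 and 165 TPM, adjusted p = 0.205) were not called. The change of Mrpl24 was 0.14, but it was -0.29 after removal of the trend over exon length (adjusted p = 0.0177) and -0.34 under median-ratio scaling (adjusted p = 0.0515). Its exons overlap those of Rrnad1 on the opposite strand. Away from the tunnel rim, Mrpl44, related to bacterial ribonuclease III, was not called either (-0.19, SE 0.09, adjusted p = 0.113). It was called lower under median-ratio scaling (-0.67, adjusted p = 0.00332), under quantile scaling (-0.46, adjusted p = 0.00626) and after removal of the trend over exon length (-0.56, adjusted p = 0.00106).

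Of the 27 members named Mrps, 14 fell with CX-5461 and none was called higher (limma, against 11.0% and 42.0% of all genes). At an unadjusted p under 0.05, 19 were lower and 1 was higher (12.9% and 46.5% of all genes). Mrps28 (chr3:8802146-8923918, minus strand), a homologue of a bacterial small-subunit protein, went to 107 and 109 TPM from 198 and 172 TPM (-0.77, SE 0.15, adjusted p = 0.00553). Mrps16 went to 52.9 and 47.5 TPM from 94.2 and 77.3 TPM (-0.76, SE 0.15, adjusted p = 0.00505). Mutations of both genes have been linked to respiratory chain disease in humans. Mrps22, for which the same is known, fell by 0.39 (SE 0.10, adjusted p = 0.017). Mrps34 had 53.8 and 44.7 TPM in controls and 45.9 and 45.01 TPM with treatment (adjusted p = 0.482), and its exons overlap those of Nme3 over 763 bases on the same strand. Mrps12, which lies at the decoding site, was at 149 and 71.5 TPM in controls and at 97.1 and 97.9 TPM with CX-5461 (-0.08, SE 0.30, adjusted p = 0.842), both treated values lying between the controls. The paralogues Mrps18a, Mrps18b and Mrps18c had changes of -0.09, -0.30 and -0.34, and none was called (adjusted p = 0.718, 0.0654 and 0.082). Mrps30, which despite its name sits in the large subunit, fell to 49.9 and 49.02 TPM from 76.4 and 74.8 TPM (-0.60, SE 0.09, adjusted p = 0.00201).

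By name and origin the groups of members lay close together. With CX-5461, 23 of 48 Mrpl genes fell (median change -0.38) beside 14 of 27 Mrps genes (median -0.39). Of the 47 members with a bacterial homologue 21 fell and 1 rose (median -0.36), and of the 28 specific to mitochondria 16 fell (median -0.40). Over all genes 11.0% were called lower and 42.0% were called higher. All 11 members with a positive change were bacterial homologues. The differences between these groups were not tested.

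Of the 75 members in the rotenone comparison, 37 fell and none rose (limma, with 47 lower and none higher at an unadjusted p under 0.05 against 13.2% and 37.5% of all genes), beside 9.57% of all genes called lower and 30.6% called higher. The median member change was -0.41, which lay 0.68 below the median of all genes (0.27), and 71 members had a negative change. Both rotenone libraries lay below both controls in 65 members (21.8% of all genes) and above them in 2 (51.4%). For the alternative fits that follow, the share of all genes called is not given, so those counts describe the members only. The count of lower members was 18 without control replicate 1, 8 without rotenone replicate 1 and 7 without rotenone replicate 2, and it was 60 under median-ratio scaling.

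Mrpl40 had the largest fall with rotenone, to 91.1 and 101 TPM from 213 and 173 TPM (-0.99, SE 0.14, adjusted p = 0.00283). Mrps36 fell to 81.0 and 82.3 TPM (-0.93, SE 0.19, adjusted p = 0.00959), close to its level with CX-5461. Mrpl18, of the central protuberance, went to 148.5 and 156 TPM from 298 and 248 TPM (-0.83, SE 0.13, adjusted p = 0.00456), and Mrpl20, which binds rRNA early in assembly in bacteria, went to 133 and 136 TPM from 268 and 210.0 TPM (-0.82, SE 0.14, adjusted p = 0.00596). Mrpl35 went to 31.7 and 32.5 TPM from 62.5 and 49.7 TPM (-0.78, SE 0.16, adjusted p = 0.01). For all of these genes the rotenone and control libraries did not overlap. Mrpl12 fell to 159 and 161 TPM (-0.72, SE 0.14, adjusted p = 0.00796), and its difference between CX-5461 and rotenone was not called (-0.39, SE 0.14, adjusted p = 0.0858). Mrpl16 was at 68.2 and 67.4 TPM (adjusted p = 0.287) and Mrps6 at 99.2 and 99.5 TPM (adjusted p = 0.836).

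Since CX-5461 and rotenone were compared with the same control libraries, their calls are given side by side without a test of overlap. A total of 29 members were called lower in both comparisons, 8 with CX-5461 alone and 8 with rotenone alone, and 29 were called in neither. The share of all genes called lower in both is not given. The members lower with CX-5461 alone were Mrpl45, Mrpl52, Mrpl54, Mrps5, Mrps9, Mrps27, Mrps28 and Mrps31. Those with rotenone alone were Mrpl36, Mrpl39, Mrpl41, Mrpl44, Mrpl55, Mrps11, Mrps18c and Mrps26. Compared directly, CX-5461 and rotenone separated only 2 members, both higher with CX-5461 (17.2% of all genes were called higher and 4.93% lower). These were Mrpl16 (0.70, SE 0.11, adjusted p = 0.00608) and the large-subunit gene Mrpl41 (0.52, SE 0.15, adjusted p = 0.0493), which was at 62.9 and 58.1 TPM with CX-5461 and at 41.3 and 42.5 TPM with rotenone. No member was called lower (limma). At an unadjusted p under 0.05, 2 were lower and 5 were higher (9.70% and 25.6% of all genes), and the libraries did not overlap in 15 lower and 31 higher members (25.0% and 44.5%). With the exon length trend removed 11 members were lower and 1 was higher, and the median member difference changed sign from 0.07 to -0.17. The share of all genes called is not given for this fit or for those with a library left out. Without any 1 of the 4 libraries, 1 member was called higher and none lower.

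**Figure D3:**
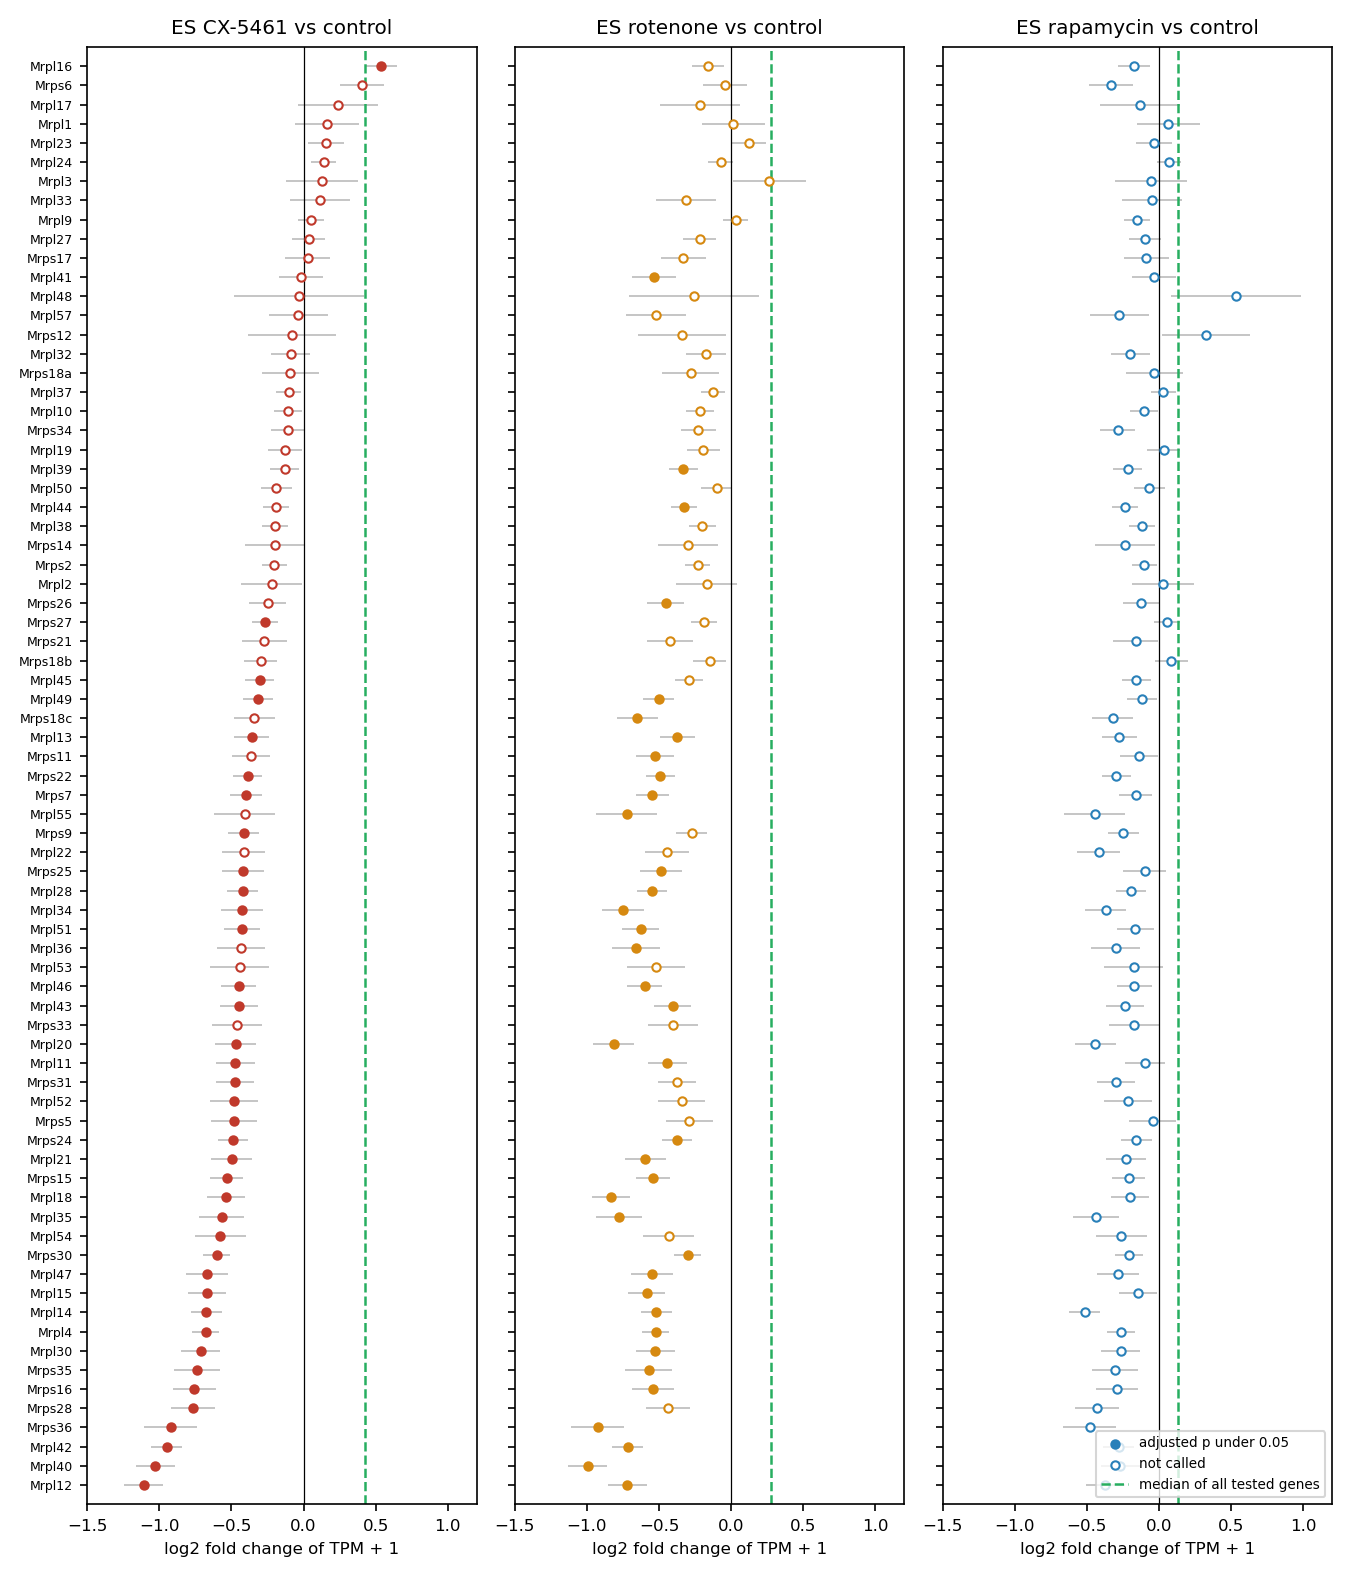
Log2 fold change of TPM + 1 (x axis) of the 75 members, in the same order in each panel, for CX-5461, rotenone and rapamycin against control ES cells, with the SE as bars. Filled points passed an adjusted p of 0.05, and the dashed line is the median of all tested genes (0.43, 0.27 and 0.13); 37 members were filled on the lower side with CX-5461, 37 with rotenone and none with rapamycin.

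With rapamycin no member was called in either direction (limma). Over all genes 0.0113% were called lower and none higher. At an unadjusted p under 0.05, 13 members were lower and none was higher, compared with 2.89% and 10.4% of all genes. The median member change was -0.18, 0.31 below the median of all genes, and 66 members had a negative change. Rapamycin libraries lay below both controls in 34 members (11.4% of all genes) and above them in 1 (29.5%). Mrpl14, which makes a contact between the subunits, was at 142 and 131 TPM in controls and at 89.3 and 101 TPM with rapamycin (-0.52, SE 0.11, adjusted p = 0.191). Mrps36 was at 93.5 and 133 TPM (-0.48, SE 0.19, adjusted p = 0.353). The largest change in either direction was that of Mrpl48, at 39.97 and 18.01 TPM in controls and 28.4 and 54.7 TPM with rapamycin (0.54, SE 0.45, adjusted p = 0.565), whose libraries overlapped widely. The 2 rapamycin libraries differed: the member median was -0.28 in replicate 1 and -0.10 in replicate 2.

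Between CX-5461 and rapamycin, 11 members were lower with CX-5461 and 2 were higher (8.76% and 30.9% of all genes). Among the 5421 other genes with a control level in the range of the members, 14.3% were called lower. The share of members was 14.7%, close to that of these equally abundant genes. At an unadjusted p under 0.05 the counts of members were 18 and 2 (11.7% and 36.9%), and the libraries did not overlap in 42 lower and 10 higher members (21.4% and 51.1%). The furthest were Mrpl40 (-0.76, SE 0.14, adjusted p = 0.00489), Mrpl12 (-0.74, SE 0.14, adjusted p = 0.00545) and Mrpl42 (-0.67, SE 0.11, adjusted p = 0.00308). The higher ones were Mrps6 (0.74, SE 0.15, adjusted p = 0.00837) and Mrpl16 (0.71, SE 0.11, adjusted p = 0.00299). For the fits with a library left out, the share of all genes called is not given. The count of lower members was 4 without CX-5461 replicate 1, 3 without CX-5461 replicate 2 and 3 without rapamycin replicate 2, and 1 member was higher without CX-5461 replicate 2.

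Other genes of the mitochondrial translation system did not all follow the members. Of 5 mitoribosomal protein genes with other names, Dap3, Chchd1, Aurkaip1 and Gadd45gip1 fell with CX-5461 and Ptcd3 was not called. Dap3, a GTP-binding protein of the small subunit, went to 86.5 and 87.7 TPM from 145 and 125 TPM (-0.63, SE 0.10, adjusted p = 0.00219). Among 15 mitochondrial translation factors, 3 fell and 3 rose (20.0% each), a share of rises below the 42.0% and of falls above the 11.0% over all genes. The elongation factor genes Tufm (-0.28, SE 0.09, adjusted p = 0.0326) and Tsfm (-0.55, SE 0.10, adjusted p = 0.00395) and the membrane insertase gene Oxa1l (-0.36, SE 0.10, adjusted p = 0.0228) fell. The initiation factor genes Mtif2 and Mtif3 rose, Mtif2 to 48.4 and 48.4 TPM from 25.5 and 31.2 TPM (0.76, SE 0.13, adjusted p = 0.00266) and Mtif3 to 28.1 and 24.4 TPM from 10.45 and 14.5 TPM (1.03, SE 0.22, adjusted p = 0.00727). Taco1, the translational activator of cytochrome oxidase subunit I, rose to 30.2 and 34.7 TPM from 13.7 and 18.9 TPM (0.97, SE 0.18, adjusted p = 0.00418). Under median-ratio and quantile scaling 2 translation factors were called higher, and after removal of the trend over exon length 1 was. With rotenone Mtif2 (0.56, SE 0.13, adjusted p = 0.0145) and Taco1 (0.66, SE 0.18, adjusted p = 0.0261) rose and 4 of the 15 fell (30.6% and 9.57% of all genes), but under median-ratio and quantile scaling none was called higher.

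Of 19 assembly and rRNA modification genes tested, 4 fell with CX-5461 (Rbfa, Tfb1m, Mettl17 and Rpusd4) and the rRNA methyltransferase gene Mrm1 rose (0.73, SE 0.15, adjusted p = 0.00648), whereas with rotenone 4 fell and none rose. Over all genes 11.0% were called lower and 42.0% higher with CX-5461, and 9.57% and 30.6% with rotenone. Of 7 genes of mitochondrial transcription, the polymerase gene Polrmt rose with CX-5461 (0.47, SE 0.14, adjusted p = 0.0237) and Mterf1a fell (-0.65, SE 0.19, adjusted p = 0.0271). Tfam, which packages the mitochondrial genome, fell with rotenone (-0.42, SE 0.11, adjusted p = 0.0252). The 13 protein genes of the mitochondrial genome itself gave 1 fall (mt-Cytb, -0.31) and 1 rise (mt-Nd5, 0.65) with CX-5461, and 3 rises with rotenone. Some of these transcripts were uneven between the controls, with mt-Nd4 at 2159 and 13.4 TPM, so their values are uncertain here.

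**Figure D4:**
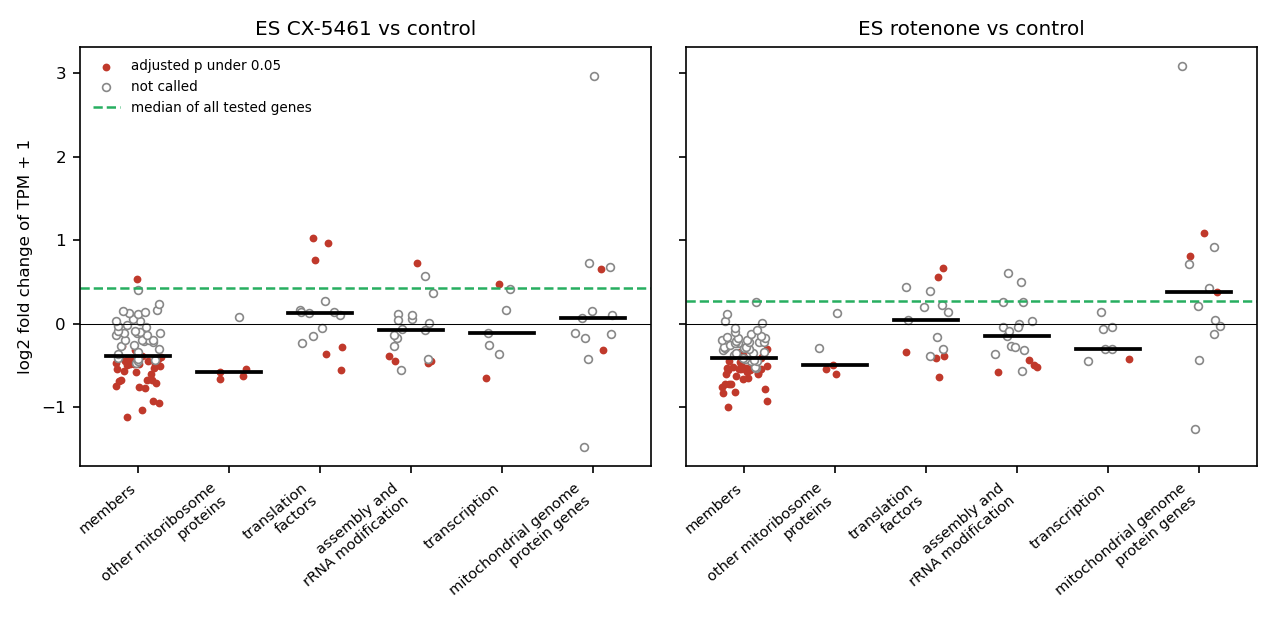
Log2 fold change of TPM + 1 (y axis) for the 75 members and 5 lists of other genes of mitochondrial translation and transcription (x axis), with CX-5461 on the left and rotenone on the right. Red points passed an adjusted p of 0.05, black bars are list medians and the dashed line is the median of all tested genes; translation factors had red points on both sides of 0 in both panels.

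The cytosolic ribosomal protein genes, whose products make up the ribosome of the cytoplasm, fell in 72 of 85 cases with CX-5461 and in 31 of 85 with rotenone. Over all genes 11.0% were called lower with CX-5461 and 9.57% with rotenone. In the direct comparison of the 2 treatments 19 of the 85 were lower with CX-5461 and 2 were higher (4.93% and 17.2% of all genes), while none of the mitochondrial members was lower. No test of the difference between the 2 gene families was made.

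Members were abundant. Their exon length, summed over the exons of a gene merged across its transcripts, had a median of 2255 bases against 3512 for all genes tested. Transcript length itself was not measured. Across the members the change with CX-5461 was related to control level (r = -0.42 over 75 genes) and less to exon length (r = 0.19), much as across all genes (-0.41 and 0.23). With rotenone the values for level and length were -0.35 and 0.31 across the members, and -0.26 and 0.33 across all genes. These correlations are over genes of the same libraries and are given as a description. Among the 5421 other genes with a control level between those of the lowest and the highest member, a range chosen after the values were seen, 19.2% were called lower with CX-5461 and 15.6% with rotenone. Of the members 49.3% were called lower in each.

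Among the members, the profiles most like the member median over the 8 ES libraries were those of Mrpl21 (r = 0.988), Mrps36 (0.988), Mrpl35 (0.980), Mrpl43 (0.971) and Mrps15 (0.971), and those least like it were Mrpl9 (-0.33), Mrpl23 (-0.27) and Mrpl1 (-0.18). Mrpl9 was at 73.6 and 75.1 TPM in controls and between 66.3 and 78.6 TPM in the 6 treated libraries. Mrpl23 has a processed pseudogene identical to it over 507 bases. Mrpl46 and Mrps11, which stand head to head on chromosome 7 and share 173 bases of exon on opposite strands, had changes of -0.45 and -0.36 with CX-5461. Members whose promoter window held the ETS letters had a median change of -0.32 with CX-5461 and those without it -0.40, while with rotenone the order was the opposite, at -0.42 and -0.37. With and without the NRF1 letters the medians were -0.25 and -0.41 with CX-5461 and -0.33 and -0.41 with rotenone. A total of 18 members have a near-identical copy, and the strand was not stated for the counting, so members that overlap an antisense gene cannot be told apart from it there.

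In embryos CX-5461 gave no call among the 75 members (limma, 13289 genes tested, of which 0.00753% were called higher and none lower). At an unadjusted p under 0.05, 2 members were lower and 2 were higher, compared with 3.72% and 8.66% of all genes. The median member change was 0.00, with 38 members negative and 37 positive. Treated libraries lay below both controls in 13 members (19.2% of all genes) and above them in 25 (27.6%). The treated libraries were unlike each other, since the SD of member changes was 0.56 in CX-5461 replicate 1 and 0.22 in replicate 2. The SD was 0.08 in each control. Each control was set against a mean that contains it, so this value is the same for both and smaller by construction. Without CX-5461 replicate 2 the fit called 9 members lower and 5 higher, while no other omission gave a call. That fit holds 1 treated library and takes its spread from the 2 controls alone, so these counts describe that library and not the treatment.

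Mrpl3 had the largest difference in embryos, at 81.7 and 80.9 TPM in controls and at 17.6 and 43.5 TPM with CX-5461 (-1.52, SE 0.42, adjusted p = 0.258). Mrpl50, a large-subunit gene specific to mitochondria, had 36.7 and 37.7 TPM in controls and 15.2 and 23.3 TPM with treatment (-0.95, SE 0.31, adjusted p = 0.312). For Mrpl48 a single treated library was low, with 14.9 and 47.5 TPM against 52.7 and 46.9 TPM (adjusted p = 0.501). On the other side, Mrpl33 was at 265 and 288 TPM in controls and at 588 and 378 TPM with CX-5461 (0.77, SE 0.30, adjusted p = 0.376), and Mrpl57 at 83.4 and 70.6 TPM against 121 and 122 TPM (0.65, SE 0.27, adjusted p = 0.388). The 4 members with the largest falls in ES cells were not called here. Mrpl12 was at 283 and 238 TPM in controls and 218 and 247 TPM with CX-5461 (-0.16, SE 0.26, adjusted p = 0.809), and Mrpl42 at 506 and 563 TPM and 560 and 628 TPM (0.15, SE 0.25, adjusted p = 0.811), with overlapping libraries. Mrpl40 lay below both controls, with 193 and 224 TPM against 256 and 243 TPM (-0.26, SE 0.26, adjusted p = 0.675), and Mrps36 lay above both, with 175 and 124 TPM against 116 and 116 TPM (0.34, SE 0.28, adjusted p = 0.623). The keratin genes Krt8 and Krt18, markers of trophectoderm, were at 1403 TPM or more in each embryo library. None of the 8 trophectoderm markers was under 1 TPM in all 4 embryo libraries. Of the 20 fibroblast markers 15 were under 1 TPM in all 4, and 5 of these (Acta2, Col3a1, Fbn1, Lox and Lum) were listed at 0. The others were Sparc (34.2 to 56.9 TPM), Fn1 (6.27 to 11.0 TPM), Pdgfra (3.97 to 8.08 TPM), Vim (1.07 to 3.60 TPM) and Thy1 (0.147 to 2.48 TPM).

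**Figure D5:**
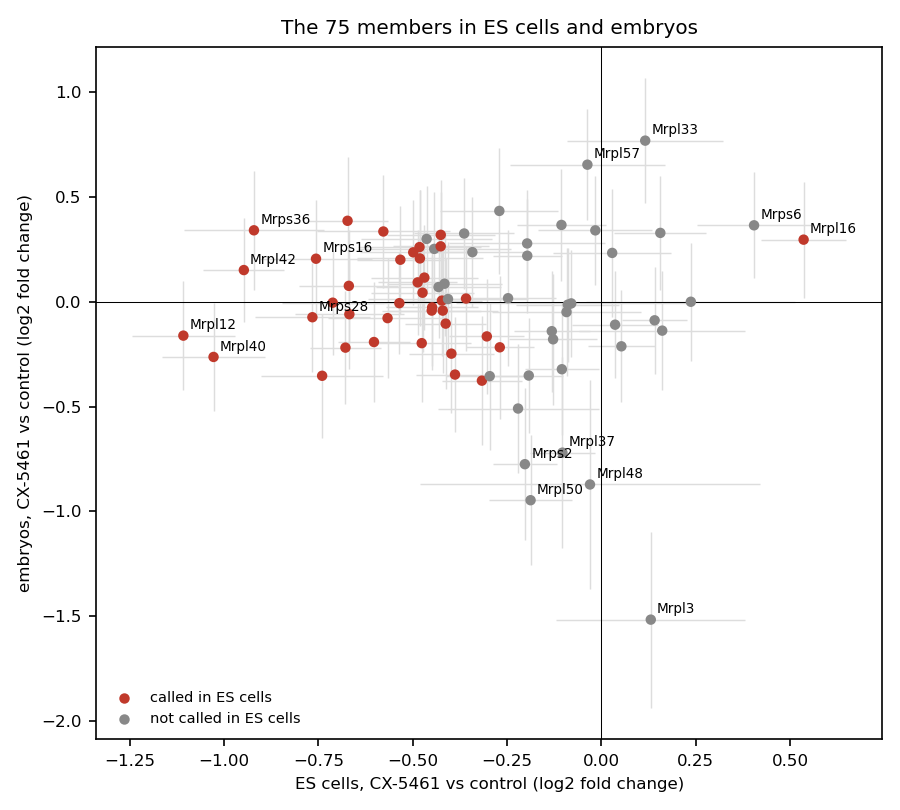
Log2 fold change with CX-5461 of the 75 members in ES cells (x axis) and in embryos (y axis), each against its own controls, with the SE as bars. Red points were called in ES cells; Mrpl12 lay at -1.11 and -0.16, Mrps36 at -0.92 and 0.34, and Mrpl3 at 0.13 and -1.52.

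Several genes of the mitochondrial ribosome lay outside the rule, among them Mrpl58, a release factor listed under its older name Ict1. Mrps10 was under 1 TPM in all 8 ES libraries but between 48 and 70.6 TPM in embryos. Mrps23 was listed at 0 in all ES libraries and in 2 of 4 embryo libraries, and the assembly gene Mpv17l2 was listed at 0 in ES cells and at 32.6 to 48.3 TPM in embryos. A listed 0 in such a table can be a failed estimate, and no fold is given for these genes.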

How the data were processed

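RNA-seq libraries of E14 ES cells (poly-A RNA, 4 groups) and of embryos (pre-amplified cDNA, 2 groups) were compared, with 2 libraries per group. The authors' deposited tables hold TPM per gene, made by base calling with CASAVA 1.8, trimming with Trimmomatic, alignment with HISAT2 to mm10, removal of duplicates with Picard and StringTie quantification against GENCODE M18. Read depth cannot be recovered from TPM and is unknown, and intervals for counting error are therefore not given. The strand setting was not given in the sources used here. TPM depends on all other genes of a library, so a rise of abundant genes lowers the rest. Embryo columns were scaled to 1000000, since control replicate 1 summed to 639063.

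Values were compared as log2(TPM + 1) with limma 3.58.1 (R 4.3.3, empirical Bayes with intensity trend, 2-sided, Benjamini-Hochberg over all tested genes, called at an adjusted p under 0.05). Fold changes are on this scale, which understates those of low genes. Genes with at least 1 TPM in at least 2 libraries of a table were tested, 8 ES libraries in 1 fit and 4 embryo libraries in another. The study itself tested read counts with DESeq2, and those counts were not analysed here. Near-identical copies were searched with BLAST 2.17.0 and figures drawn with matplotlib 3.10.9. Gene positions are from GENCODE M21 (GRCm38), matched by identifier for 53620 genes, with 95 unmatched.

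Members named in the text were, per comparison with control, up to 5 called members of largest rise and of largest fall (up to 3 of largest change where fewer were called), the 5 highest and 3 lowest in control ES cells, those with a fixed role and, for likeness, the 5 nearest to the member median. Others were named after their values were seen (Mrpl9, Mrpl1, Mrpl33, Mrpl46, Mrpl57, Mrps11, Mrps25, Mrps6 and those in the lists of calls). The members, lists and tests were chosen with earlier results of these data known. Alternatives were a pseudocount of 0.1, no filter or 5 TPM, median-ratio and quantile scaling, removal of the exon length trend, a blocked fit on replicate number, a prior without trend, each pair of groups alone, embryo values as deposited, and each library left out.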

Additional observations from a re-analysis of the deposited data

Results flagged for a closer look

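With CX-5461, 16 of the 75 members (21.3%) lay below both controls in both treated ES libraries and above both controls in both treated embryo libraries, compared with 4.87% of the 11839 genes tested in both tables. The reverse held for 1 member, Mrpl9 (1.33%, against 8.51%). The ES part alone held for 54 members (19.4% of all genes tested there) and the embryo part alone for 25 (27.6%). The higher share of members thus follows the fall in ES cells already given and is not a separate result. Among the 16 were 5 of the members named by rule. Their log2 change in embryos was 0.1158 for Mrpl20, 0.2527 for Mrpl53, 0.2058 for Mrps16, 0.2371 for Mrps18c and 0.3414 for Mrps36. In ES cells it was -0.4692, -0.4431, -0.7564, -0.342 and -0.9209 for the same genes. None of the embryo changes was called, and the difference between ES cells and embryos was not tested. Mrpl53 shares most of its exon bases with Gm42688, so its level is less certain.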

How the results depend on the processing

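The median member change stayed negative for CX-5461, rotenone and rapamycin against ES controls under every alternative, but the counts of calls moved. For CX-5461 the 37 lower members became 59 under median-ratio scaling, 61 with the exon length trend removed, 22 with the 2 groups alone and 11 to 44 with 1 library left out. The 1 higher member became 0 under median-ratio scaling, quantile scaling and removal of the length trend, and 1 to 3 with 1 library left out. For rotenone the 37 lower members became 60 under median-ratio scaling, 23 with the 2 groups alone and 7 to 49 with 1 library left out. Rapamycin gave 0 calls throughout. The share of all genes called under each alternative is not given, here or below, so these counts describe the members only.

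For CX-5461 against rotenone, the 0 lower members became 1 under median-ratio scaling, 2 under quantile scaling, 11 with the length trend removed and 4 with the 2 groups alone. The 2 higher members became 0 under median-ratio scaling and 10 with the 2 groups alone, and 1 under a pseudocount of 0.1, no filter, quantile scaling, removal of the length trend, a prior without trend, the replicate block and any library left out. For CX-5461 against rapamycin, the 11 lower members became 7 with no filter, 29 under median-ratio scaling, 26 under quantile scaling, 45 with the length trend removed, 6 with a prior without trend, 6 under the replicate block and 3 to 13 with 1 library left out. The 2 higher members became 0 under median-ratio scaling and with the length trend removed, and 1 to 2 with 1 library left out. With the length trend removed, Mrpl24 turned to -0.29 against control and -0.29 against rapamycin, and Mrpl44 to -0.28 against rapamycin, and the cause was not tested. In embryos the 0 calls became 9 lower and 5 higher without CX-5461 replicate 2, where the spread came from the 2 controls alone, and stayed 0 under the others, while the median member change there ran from -0.14 under median-ratio scaling to 0.32 with the values as deposited.

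With the replicate number as a block, 29 members were lower with CX-5461 and 27 with rotenone. Samples of the same number did not deviate together (correlations of -0.298 to 0.170 between ES groups and 0.0539 in embryos), so the numbers were not taken as pairs. With 1 library left out, the lone library of its group was assumed to vary like the others in the fit. Limits are the 2 libraries per group, the unknown depth, the difference between the ES controls and the rise of fibroblast markers with the same treatments.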
